A study of Mus musculus with 24 samples.

Results

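Rows of the gene count table that carry a mouse miRNA symbol or the symbol of an miRNA host transcript were collected, and the members were chosen by their raw counts, of which they had to have at least 50 summed over the 24 libraries. Of 49315 rows, 1190 had such a symbol, 533 of these held at least 1 count and 89 reached 50. The 89 members are 9 host transcripts and 80 rows of single miRNA hairpins. Because the summed counts chose the members, their abundance is a description and not a finding. The question is whether hairpin rows or host transcripts rise in Cre+ microglia, in which the processing enzyme Dicer1 is meant to be lost.

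An miRNA is cut from a longer primary transcript. The nuclear enzyme Drosha releases a hairpin, and the cytoplasmic ribonuclease Dicer1 trims the hairpin to a short duplex. An Argonaute protein then holds 1 strand and pairs its seed (bases 2 to 8) with target messenger RNAs. In macrophages and microglia, miR-155 is known to promote inflammatory responses, and miR-142 is found mainly in blood-derived lineages.

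The libraries came from microglia sorted from brain as CD45int CD11b+ cells, with 3 libraries for each of 8 groups. Cre+ mice carried creERT2, a tamoxifen-dependent recombinase, at the Cx3cr1 locus for deletion of Dicer1, and Cre- mice lacked it; the Cre+ groups therefore also differ from the Cre- groups in creERT2 at Cx3cr1. Mice of both genotypes received tamoxifen. Naive mice received tamoxifen only, at the start in the labels' words. Demyelination mice received it at 4-5 weeks of age and were fed the copper chelator cuprizone for 6 weeks. Both remyelination groups had cuprizone for 6 weeks and then normal diet for 6 weeks. They differ in the time of tamoxifen, which was at 4-5 weeks of age for early-tamoxifen remyelination. For late-tamoxifen remyelination it was in week 5 of cuprizone feeding, the peak in the labels' words. The series text calls the 3 samples of a group biological replicates. Each naive or demyelination library held 19.48 to 44.53 M counts (M, mega) and each remyelination library 8.87 to 12.56 M counts, so depth and state cannot be told apart where remyelination is compared with an earlier state.

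Of the 80 hairpin rows, 77 had a sequence in the RefSeq table of GRCm38.p6. The mature miRNAs of the host transcripts and loci on which the results turn are given here, 5′ to 3′, with the seed in capitals.
miR-155-5p: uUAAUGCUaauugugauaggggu
miR-142a-5p: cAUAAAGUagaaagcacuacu
miR-142a-3p: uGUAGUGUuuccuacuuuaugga
miR-142b: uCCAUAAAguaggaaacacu
miR-22-3p: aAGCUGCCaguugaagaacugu
miR-17-5p: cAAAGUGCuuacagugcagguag
miR-20a-5p: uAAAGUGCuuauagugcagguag
miR-99a-5p: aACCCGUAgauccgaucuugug
let-7c-5p: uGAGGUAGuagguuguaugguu
miR-125b-5p: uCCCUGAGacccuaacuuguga
miR-181a-5p: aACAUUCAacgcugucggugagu
miR-9-5p: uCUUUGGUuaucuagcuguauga
miR-6236: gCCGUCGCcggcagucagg
miR-692: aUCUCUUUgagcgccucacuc
Among them miR-17-5p and miR-20a-5p share a seed. miR-142b is read from the strand opposite to miR-142a, and its mature positions (chr11:87756906-87756925) lie within those of miR-142a-3p (chr11:87756903-87756925).

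The members held 0.0269% of all counts, and Mir99ahg alone held 63.4% of the members' counts. Mean levels ran between 0.102 and 172.5 CPM (counts per M counts of the library, with library sizes scaled by TMM), with a median of 0.337 CPM, and 79 of the 89 members were below 1 CPM. A count was present in every library for 43 members. Per kilobase of annotated exon, the highest mean levels were 204.3 CPM per kb for the Mir6236 hairpin row and 150.7 CPM per kb for Mir142hg. Mir99ahg stood at 12.06, Mir22hg at 2.704, Mir17hg at 0.511 and Mir155hg at 0.3815 CPM per kb. Just inside the threshold were Mir27a with 50, Mir7078 with 51 and Mir207 with 52 counts, and just outside it Mir8110 with 49, Mir7024 with 48 and Mir6399 with 48.

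Most hairpin rows lie inside other genes. By the GENCODE M21 annotation of GRCm38, 46 of the 80 lie in an intron of a gene on the same strand, 12 in an intron of a gene on the other strand only, 11 overlap an exon on the same strand, 2 an exon on the other strand, and 9 are intergenic. A hairpin row is 54 to 136 bases long, and its counts do not tell hairpins from intron or exon RNA that runs through the same bases. The handling of reads that overlap more than 1 row is not given in the sources used here. Of the 230 miRNA rows that lie wholly within an exon, 219 (95.2%) were listed at 0 in all libraries, against 230 of 546 (42.1%) in same-strand introns. The rows of Mir155, Mir22, Mir142, Mir125b-2 and all 6 miRNAs of Mir17hg were listed at 0 in all libraries. For these miRNAs the host transcript is the only readout here, except that the Mir142b row overlaps the Mir142 row on the other strand. Mature miRNAs were not measured in these libraries.

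Dicer1, counted over the whole gene, stood at 21.8, 22.1 and 24.3 CPM in naive Cre+ libraries, all above the 18.6, 11.1 and 12.1 CPM in naive Cre- libraries (log2 fold change 0.72 ± 0.16 SE, n = 3 per group, edgeR adjusted p = 0.00151). In demyelination it was 11.6, 15.7 and 17.5 CPM in Cre+ libraries, against 23.1, 22.7 and 15.2 CPM in Cre- libraries, and it was called in no state but naive. In remyelination it ranged over 30.5 to 35.2 CPM in Cre+ libraries, against 30.6 to 39.1 CPM in Cre- libraries. Gene totals do not resolve a deleted exon. Cx3cr1 was between 41.5% and 59.3% of the Cre- mean of the same state in 9 Cre+ libraries. The other 3 stood apart, with 2.18% in naive Cre+ replicate 1 and with 1.87% and 1.61% in demyelination Cre+ replicates 1 and 3. Where a call of a member given here is lost without these 3 libraries, this is said beside it; demyelination Cre+ is then 1 library, which is assumed to vary like the other groups. The naive Dicer1 value was 0.72 without them too (adjusted p = 0.00238). The 6 microglia markers were detected in every library, with a sum of 30090 to 65730 CPM, and the 4 neuron markers summed to 1.689 to 6.23 CPM. Sums of 4 markers each were higher for other brain cells, at up to 361.2 CPM for astrocytes and 142.9 CPM for oligodendrocytes. They reached 112.1 CPM for endothelial and 92.58 CPM for mural cells.

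Neither hairpin rows nor host transcripts rose together in Cre+ microglia. After the filter on low counts 46 members could be tested, among them 7 host transcripts. Of these 46, 43 would have passed it without their own highest group. The other 3 were Mir369, Mir181a-2 and Mir23a, whose tests are given from the fit of all 89 members, in which only the summed count decided what was tested. This check left out 1 group at a time. Mir155hg and Mir692-2 were high in both demyelination groups, so they can still have passed through that state. In naive microglia 2 of 46 were called, 1 higher and 1 lower, where 28.3% of all 17579 genes were called, 14.7% higher and 13.7% lower (edgeR quasi-likelihood test, Benjamini-Hochberg adjusted p under 0.05). No member was called in demyelination, where 9.17% of all genes were, and 4 members had an unadjusted p under 0.05. None was called in early-tamoxifen remyelination, where 0.0341% of all genes were, and 0 had an unadjusted p under 0.05. None was called in late-tamoxifen remyelination, where 11% of all genes were, and 5 had an unadjusted p under 0.05. DESeq2 also called 0 members in each of these last 3 comparisons.

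The median log2 fold change of the 46 members, Cre+ over Cre-, was -0.05 in naive, -0.17 in demyelination, 0.01 in early-tamoxifen remyelination and -0.15 in late-tamoxifen remyelination. Over all genes tested it was -0.01, -0.01, -0.04 and -0.01 in the same order of states. Averaged over the 4 states with equal weight, 6 of 46 members were called, 1 higher and 5 lower, where 25.8% of all genes were called, 12.9% higher and 13% lower. All 6 calls were lost without the 3 libraries of low Cx3cr1, where 0 members and 14.2% of all genes were called. With every row of at least 50 counts in the fit, so that all 89 members were tested, 3 members were called in naive microglia (24.3% of all 20067 genes) and 6 over the mean of states (22.1%).

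**Figure D1:**
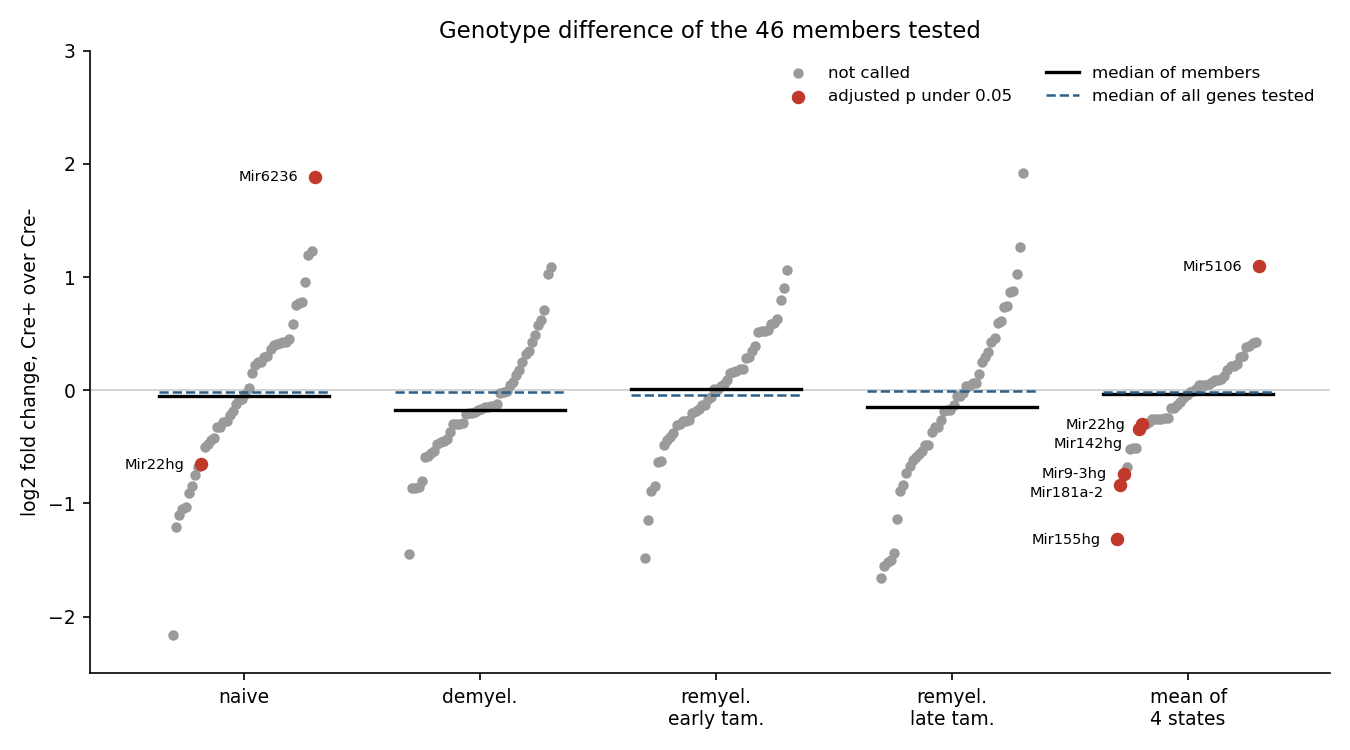
Each point is 1 of the 46 members tested, with its log2 fold change of Cre+ over Cre- on the y axis, in 4 states and in their mean on the x axis; red points passed an adjusted p of 0.05, the solid line is the members' median and the dashed line that of all genes. The members lie on both sides of 0 in every column, with 2 called in naive, 0 in each other state and 6 in the mean of states.

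Precision limits what these tests could show. In the fit of all 89 members, the median SE of the naive log2 fold change was 0.845 for the 31 members with fewer than 100 counts, 0.607 for the 50 members between 100 and 500 and 0.3 for the 8 members above. A p that missed the threshold does not show equal levels.

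Mir155hg (chr16:84703167-84715245), the precursor transcript of miR-155, was close to absent in naive microglia. It stood at 0, 0.0242 and 0 CPM in naive Cre+ libraries and at 0.165, 0 and 0.099 CPM in naive Cre- libraries. In demyelination it stood at 1.08, 1.70 and 1.13 CPM in Cre+ libraries, against 2.03, 2.27 and 1.47 CPM in Cre- libraries. Every demyelination library was above every naive one.

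The summed raw counts of Mir155hg were 85 in demyelination Cre+ against 1 in naive Cre+ libraries, a depth-adjusted ratio of 115 with a 95% counting interval of 20.1 to 4600. In Cre- mice they were 109 in demyelination against 6 in naive libraries, a ratio of 27.3 (12.1 to 76). These intervals cover counting error only. Both rises passed the test (edgeR adjusted p = 6.47e-07 in Cre+ and 3.79e-06 in Cre-). Of the 238 counts of Mir155hg, these 85 and 109 were in demyelination, and no library of another state was above 0.491 CPM. Its place among the members thus rests on the state in which it is high, and its demyelination tests are a description. In early-tamoxifen remyelination Mir155hg was lower than in demyelination with a log2 fold change of -2.51 ± 0.64 in Cre+ (adjusted p = 0.00135) and -2.17 ± 0.59 in Cre- mice (adjusted p = 0.00295). Whether the rise at demyelination differed between genotypes was tested directly and did not pass (difference 1.61 ± 1.19, adjusted p = 0.41).

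Averaged over states, Mir155hg was lower in Cre+ mice (log2 fold change -1.32 ± 0.44, edgeR adjusted p = 0.0293), and its group mean was lower in Cre+ than in Cre- libraries in 4 of 4 states. No single state passed in the main analysis, and late-tamoxifen remyelination did without its Cre+ replicate 1 (adjusted p = 0.0479). In late-tamoxifen remyelination it stood at 0.274, 0 and 0 CPM in Cre+ libraries, against 0.473, 0.282 and 0.165 CPM in Cre- libraries, 3 against 11 counts, a ratio of 0.303 with a counting interval of 0.0542 to 1.15. Without the 3 libraries of low Cx3cr1 the mean difference was -1.15 ± 0.49 with an adjusted p of 0.126. The call was also lost without naive Cre+ replicate 3, naive Cre- replicate 1 or 3, late-tamoxifen remyelination Cre+ replicate 2 or 3, or late-tamoxifen remyelination Cre- replicate 1, with adjusted p-values between 0.0532 and 0.078.

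Mir142hg (chr11:87755577-87757270), the host of miR-142a, was the second most abundant member. Its levels were 40.7, 34.6 and 31.0 CPM in naive Cre+ libraries, against 56.9, 49.0 and 27.4 CPM in naive Cre- libraries. In demyelination they were 55.7, 64.6 and 53.2 CPM in Cre+ libraries, against 82.7, 77.4 and 81.2 CPM in Cre- libraries, without overlap between genotypes. In early-tamoxifen remyelination they were 26.4, 27.4 and 32.5 CPM in Cre+ libraries, against 30.4, 42.6 and 30.8 CPM in Cre- libraries. The lowest levels were in late-tamoxifen remyelination, with 22.4, 15.9 and 19.0 CPM in Cre+ libraries, against 22.7, 26.0 and 22.6 CPM in Cre- libraries.

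Mir142hg rose at demyelination by 0.71 ± 0.19 on the log2 scale in Cre+ mice (adjusted p = 0.00304) and by 0.86 ± 0.19 in Cre- mice (adjusted p = 0.000927). Early-tamoxifen remyelination was then lower than demyelination, at -1.01 ± 0.19 in Cre+ (adjusted p = 0.000108) and at -1.22 ± 0.19 in Cre- mice (adjusted p = 1.6e-05). With GC content and length taken out, the rise at demyelination in Cre+ mice was 0.17 ± 0.14 and no longer called (adjusted p = 0.339), and in Cre- mice it was 0.37 and not called with a replicate block added to this correction (adjusted p = 0.053). The genotype difference in demyelination was -0.47 ± 0.19 and did not pass (adjusted p = 0.12). It was called with no filter (adjusted p = 0.0156), with the 6 demyelination libraries alone (0.0125) and with a replicate block plus GC and length correction (0.0337), and was -0.27 without the 3 libraries of low Cx3cr1 (adjusted p = 0.907). Averaged over states Mir142hg was lower in Cre+ mice, at -0.35 ± 0.10 (adjusted p = 0.0113), a call lost without the 3 libraries of low Cx3cr1 (-0.33 ± 0.12, adjusted p = 0.0699).

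Mir22hg (chr11:75461539-75466676), the host of miR-22, was the 1 host transcript called between genotypes within a state. In naive microglia it stood at 3.37, 4.78 and 2.96 CPM in Cre+ libraries, all below the 5.54, 5.86 and 6.20 CPM in Cre- libraries. The log2 fold change was -0.65 ± 0.20 (edgeR adjusted p = 0.014). The naive call was lost without Cre+ replicate 1 (adjusted p = 0.0502), without Cre+ replicate 3 (0.0864) and with the 6 naive libraries alone (0.0529), and without the 3 libraries of low Cx3cr1 the value was -0.62 ± 0.24 (adjusted p = 0.0588).

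In demyelination Mir22hg was at its highest, with 9.41, 10.2 and 10.7 CPM in Cre+ libraries, against 9.81, 9.14 and 8.75 CPM in Cre- libraries, which overlapped. The rise over naive was 1.43 ± 0.20 in Cre+ (adjusted p = 8.51e-07) and 0.65 ± 0.19 in Cre- mice (adjusted p = 0.00938; 0.38 with adjusted p = 0.117 once GC content and length were taken out). The difference between these rises was 0.78 ± 0.27 and missed the threshold (adjusted p = 0.0519); it passed with DESeq2 size factors, with DESeq2's own test and without naive Cre+ replicate 2 (adjusted p = 0.0102 to 0.0314). Early-tamoxifen remyelination was lower than demyelination, at -1.73 ± 0.21 in Cre+ (adjusted p = 7.13e-08) and at -1.19 ± 0.21 in Cre- mice (adjusted p = 2.7e-05). Averaged over states Mir22hg was lower in Cre+ mice, at -0.30 ± 0.11 (adjusted p = 0.0385), a call that 22 of 32 alternatives lost, with -0.27 and an adjusted p of 0.165 without the 3 libraries of low Cx3cr1.

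Mir99ahg (chr16:77236317-77773427), which spans miR-99a, let-7c and miR-125b, was called between genotypes in no single state. Averaged over states its difference was -0.13 ± 0.07 (adjusted p = 0.199), which was -0.15 and called with a replicate block plus GC and length correction (adjusted p = 0.0324). In naive microglia it stood at 197, 211 and 203 CPM in Cre+ libraries, against 195, 232 and 177 CPM in Cre- libraries (log2 fold change 0.02 ± 0.14, adjusted p = 0.948). In demyelination it stood at 148, 164 and 132 CPM in Cre+ libraries, against 195, 170 and 180 CPM in Cre- libraries. Here the groups did not overlap, but the difference of -0.30 ± 0.14 did not pass (adjusted p = 0.209). Demyelination was lower than naive in Cre+ mice, at -0.46 ± 0.14 (adjusted p = 0.0076), which was -0.29 ± 0.23 without the 3 libraries of low Cx3cr1 (adjusted p = 0.371). Early-tamoxifen remyelination was not called against demyelination in the main analysis. With GC and length correction Mir99ahg was called lower there, at -0.40 ± 0.12 in Cre+ (edgeR adjusted p = 0.00586) and at -0.49 ± 0.12 in Cre- mice (0.00117). The hairpin rows inside Mir99ahg were near 0, with 5 counts each for Mir99a and Mirlet7c-1 over all 24 libraries.

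Mir17hg (chr14:115042879-115046727), the host of the miR-17 cluster, which is known for promoting proliferation, stood at 3.60, 2.30 and 2.58 CPM in naive Cre+ libraries, against 1.48, 2.52 and 2.28 CPM in naive Cre- libraries. The groups overlapped and the difference did not pass (0.40 ± 0.34, adjusted p = 0.399). It was lower in demyelination than in naive Cre+ libraries, at -0.99 ± 0.35 (adjusted p = 0.02), a call lost without the 3 libraries of low Cx3cr1 (-0.58 ± 0.52, adjusted p = 0.414), without naive Cre+ replicate 1 and without demyelination Cre+ replicate 1.

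The remaining host transcripts belong to miRNAs known mainly from neurons (Mir9-3hg, Mir124-2hg) or muscle (Mir133a-1hg), or to miR-670 (Mir670hg), and had 62 to 198 counts each. Mir9-3hg in late-tamoxifen remyelination stood at 0.182, 0.344 and 0.282 CPM in Cre+ libraries, against 0.947, 0.847 and 0.576 CPM in Cre- libraries, without overlap (-1.52 ± 0.59, adjusted p = 0.0992). Its difference averaged over states was called lower (-0.74 ± 0.27, adjusted p = 0.0431), a call that 25 of 32 alternatives lost. Beside it, the neuron markers in late-tamoxifen remyelination summed to 3.559 to 5.763 CPM in Cre+ libraries, against 2.799 to 4.868 CPM in Cre- libraries. The astrocyte markers summed to 114.2 to 180.8 CPM in the same Cre+ libraries, against 219.2 to 361.2 CPM in the Cre- libraries, without overlap. The part of these cells was not tested. Mir124-2hg was called in no comparison of genotypes or states in the main analysis, but in naive microglia and for demyelination over naive in Cre- mice once naive Cre- replicate 2 was left out, and Mir133a-1hg and Mir670hg did not pass the filter.

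**Figure D2:**
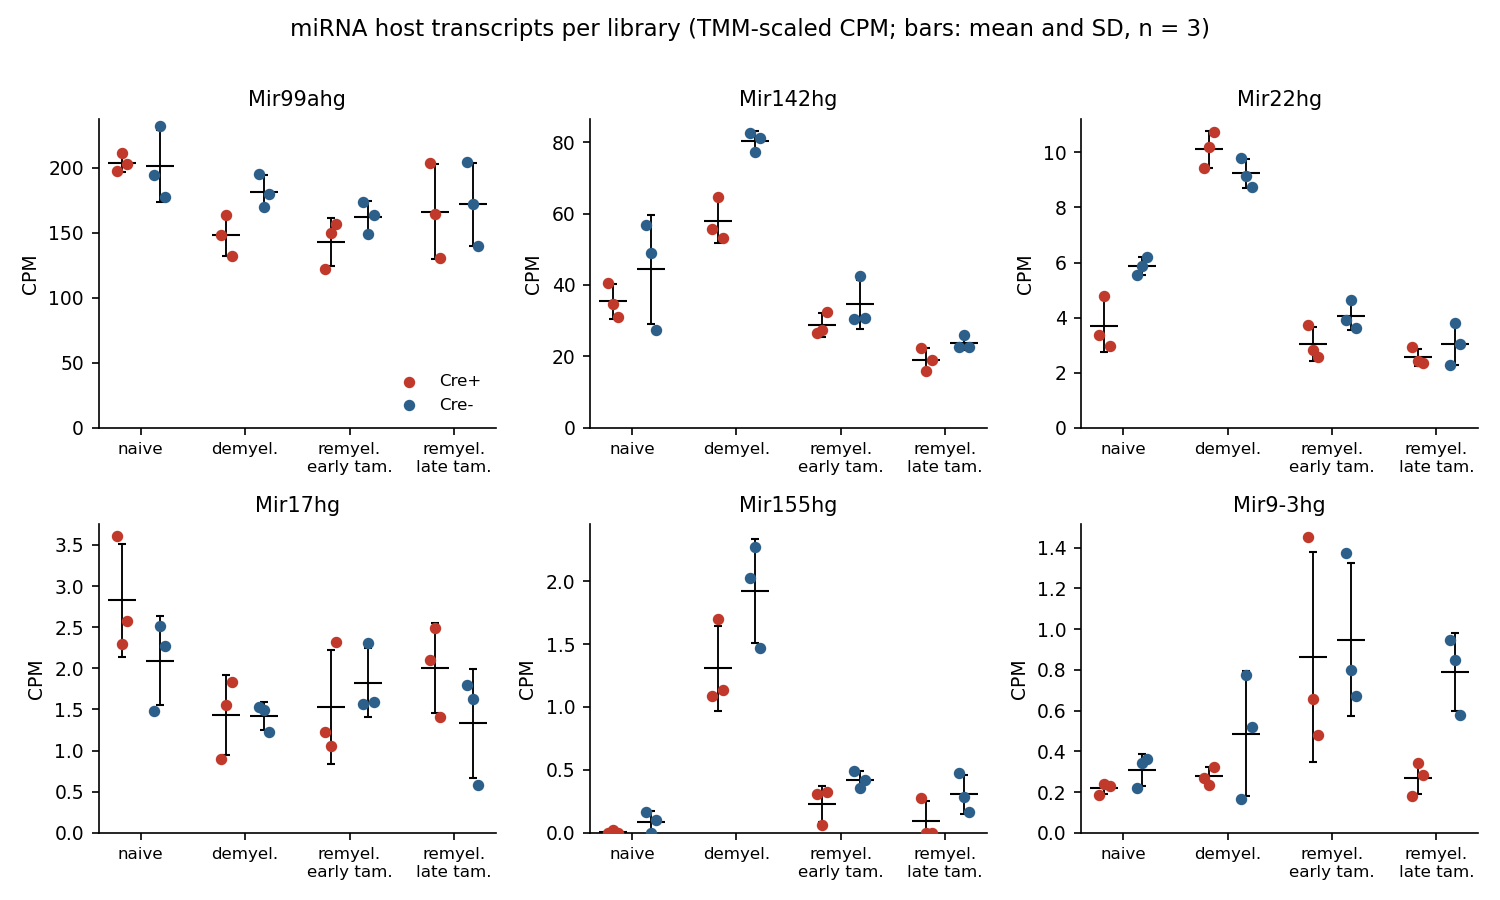
CPM of 6 host transcripts (y axis) in the 4 states (x axis), 1 point per library, with Cre+ left of Cre- and bars for the mean and SD of 3 libraries. Mir155hg, Mir22hg and Mir142hg are highest in demyelination in both genotypes, while Mir99ahg stays between 122 and 232 CPM throughout.

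Among the hairpin rows, 1 was called between genotypes within a state. The Mir6236 row (chr9:110281287-110281409, intergenic) stood at 9.08, 13.6 and 16.5 CPM in naive Cre+ libraries, all above the 6.86, 3.52 and 0.924 CPM in naive Cre- libraries. The log2 fold change was 1.89 ± 0.43 (edgeR adjusted p = 0.00324), and it was 2.05 ± 0.47 without the 3 libraries of low Cx3cr1 (adjusted p = 0.0057). With the 6 naive libraries fitted alone it did not pass (1.85, adjusted p = 0.0894).

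In the later states the Mir6236 values of the genotypes overlapped. In demyelination they were 10.3, 15.2 and 16.7 CPM in Cre+ libraries, against 21.8, 18.1 and 11.9 CPM in Cre- libraries. In early-tamoxifen remyelination they were 38.4, 36.8 and 24.7 CPM in Cre+ libraries, against 29.6, 33.7 and 41.1 CPM in Cre- libraries, and in late-tamoxifen remyelination 37.5, 48.3 and 43.0 CPM in Cre+ libraries, against 35.5, 43.3 and 46.7 CPM in Cre- libraries. Early-tamoxifen remyelination over demyelination was 1.25 ± 0.39 in Cre+ (adjusted p = 0.00972; 1.13 with 0.13 without the 3 libraries of low Cx3cr1) and 1.02 ± 0.39 in Cre- mice (adjusted p = 0.0348). The Cre- call was lost in 7 of 13 alternatives, among them GC and length correction (0.46, adjusted p = 0.302) and leaving out early-tamoxifen remyelination Cre- replicate 2 or 3 or demyelination Cre- replicate 2 or 3 (adjusted p = 0.0619 to 0.121), and the Cre+ call was also lost with GC and length correction (0.69, adjusted p = 0.112). Demyelination over naive was 0.09 ± 0.39 in Cre+ (adjusted p = 0.864) and 2.28 ± 0.43 in Cre- mice (adjusted p = 0.000462). The genotype difference in demyelination minus that in naive mice was -2.19 ± 0.58 (adjusted p = 0.0168; 0.0917 without the 3 libraries of low Cx3cr1), and Mir6236 was the 1 member of 46 called in that comparison, where 15.8% of all genes were called. No member was called in the other 2 comparisons of genotype differences, where 3.74% (early-tamoxifen remyelination against demyelination) and 3.77% (late-tamoxifen against early-tamoxifen remyelination) of all genes were called. Here 2 and 0 members had an unadjusted p under 0.05, and DESeq2 called 0 in each.

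Mir5106 and Mir181a-2 were the hairpin rows called over the mean of states, in opposite directions. The group means of Mir5106 were 0.410, 0.298, 0.633 and 0.665 CPM in Cre+ libraries, against 0.187, 0.145, 0.331 and 0.275 CPM in Cre- libraries, from naive to late-tamoxifen remyelination. The mean difference was 1.10 ± 0.35 (adjusted p = 0.0212). Mir5106 lies in an intron of a gene on the same strand, and that host was also called higher over the mean of states. It was the 1 pair of 22 such pairs in which both were called in the same direction. Mir181a-2 lies in an intron of Nr6a1 on the other strand, with group means of 0.466, 0.254, 0.147 and 0.364 CPM in Cre+ libraries, against 0.891, 0.478, 0.268 and 0.613 CPM in Cre- libraries in the same order. It had passed the filter on low counts only through its highest group, naive Cre-. In the fit of all 89 members its mean difference was -0.83 ± 0.28 (adjusted p = 0.0288), while that of Nr6a1 was 0.08 ± 0.13 (adjusted p = 0.723). Both rows were on the same side in 4 of 4 states, and both calls were lost without the 3 libraries of low Cx3cr1; the Mir181a-2 call was also lost without early-tamoxifen remyelination Cre+ or Cre- replicate 3 (adjusted p = 0.0508 and 0.0925), with no filter and with GC and length correction.

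Other hairpin rows separated the naive genotypes without being called in the main analysis. Mir7086 (chr9:45266643-45266707), in an intron of the interleukin-10 receptor gene Il10ra, stood at 1.45, 1.06 and 0.923 CPM in naive Cre+ libraries, all below the 1.87, 1.78 and 1.81 CPM in naive Cre- libraries. Its difference was -0.67 ± 0.26 (edgeR adjusted p = 0.0556). It was called with DESeq2 size factors (adjusted p = 0.0471), with DESeq2's own test (0.0416), without the 3 libraries of low Cx3cr1 (-0.89, adjusted p = 0.0344) and without naive Cre+ replicate 1 (0.0319), and in none of the other 11 alternatives. The difference of Il10ra was 0.07 ± 0.10 (adjusted p = 0.668). Mir5620 (chr7:7298891-7298946), in an intron of Clcn4 on the other strand, did not pass the filter on low counts. Where all 89 members were tested it was called (-2.22 ± 0.63, adjusted p = 0.0104), as it was with no filter, with the 6 naive libraries alone and without the 3 libraries of low Cx3cr1. It stood at 0.0468, 0.0967 and 0.154 CPM in naive Cre+ libraries, all below the 0.439, 0.477 and 0.561 CPM in naive Cre- libraries.

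More members were called between states than between genotypes. For demyelination over naive, 14 of 46 members were called in Cre+ mice, 10 higher and 4 lower, where 52.2% of all genes were called, 26.3% higher and 25.9% lower. In Cre- mice 10 were called, all higher, where 35.9% of all genes were called, 19.7% higher and 16.2% lower. For early-tamoxifen remyelination over demyelination, 16 members were called in Cre+ mice, 10 higher and 6 lower (63.3% of all genes, 32.5% higher and 30.8% lower), and 14 in Cre- mice, 6 higher and 8 lower (54.7% of all genes, 26.3% higher and 28.3% lower). In each of these comparisons the share of members called was below that of all genes. Without the 3 libraries of low Cx3cr1, demyelination Cre+ is 1 library, so only effect sizes are given here. In that fit, the log2 fold change of demyelination over naive in Cre+ mice was 6.35 for Mir155hg, 1.44 for Mir22hg, 1.03 for Mir142hg, 3.01 for Mir692-2 and 2.52 for Mir703. Early-tamoxifen remyelination over demyelination in Cre+ mice was -2.89 for Mir155hg, -1.74 for Mir22hg, -1.17 for Mir142hg, -3.59 for Mir692-2 and 2.97 for Mir692-1.

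Markers of other cells moved with these states as well. The 5 border macrophage markers summed to 65.44 to 76.13 CPM in demyelination Cre+ libraries and 11.98 to 15.27 CPM in naive Cre+ libraries. In Cre- mice the same markers summed to 92.41 to 153.3 CPM in demyelination and 18.05 to 24.26 CPM in naive libraries. At early-tamoxifen remyelination they were higher again, with 250.4 to 437.5 CPM in Cre+ libraries, against 318.1 to 370.2 CPM in Cre- libraries. The 3 monocyte markers summed to 24.84 to 41.92 CPM in demyelination Cre+ libraries and 10.02 to 13.24 CPM in naive Cre+ libraries, while in Cre- mice demyelination gave 48.78 to 98.9 CPM and naive 13.06 to 15.32 CPM. The 4 neutrophil markers summed to 1192 to 1506 CPM in demyelination Cre+ libraries and 111 to 433.1 CPM in naive Cre+ libraries, while in Cre- mice demyelination gave 180 to 758.9 CPM and naive 138 to 446 CPM. Neutrophil marker sums in early-tamoxifen remyelination were 307.7 to 858.3 CPM in Cre+ libraries, against 430.7 to 3392 CPM in Cre- libraries. In late-tamoxifen remyelination they were 376.2 to 4252 CPM in Cre+ libraries, against 150.8 to 234.7 CPM in Cre- libraries, without overlap. No marker of these 3 lists was at 0 in all libraries of a group. The 6 microglia markers summed to 30850 to 39410 CPM in demyelination and 53570 to 65730 CPM in naive libraries. In such sorted bulk samples, fewer cells of a type and less RNA per cell cannot be told apart, and the part of these cells in the members' changes was not tested.

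The Mir692-1 and Mir692-2 rows share a mature sequence and moved in opposite directions between demyelination and early-tamoxifen remyelination. From naive to demyelination both were higher. For Mir692-1 this rise was 1.94 ± 0.65 in Cre- mice (edgeR adjusted p = 0.0201), a call lost in 5 of 13 alternatives. In Cre+ mice it was 1.35 ± 0.63 and not called (edgeR adjusted p = 0.0735). Their hairpins have 109 bases each and differ by an edit distance of 6, so their counts are uncertain where reads could map to both. The Mir692-1 row (chr17:6895229-6895337) stood at 3.44, 1.64 and 2.88 CPM in early-tamoxifen remyelination Cre+ libraries, against 0.349, 0.330 and 0.108 CPM in demyelination Cre+ libraries. In Cre- mice it stood at 2.36, 5.42 and 2.94 CPM in early-tamoxifen remyelination and at 0.384, 0.388 and 0.236 CPM in demyelination. Every early-tamoxifen remyelination library was above every demyelination library, and the log2 fold change was 3.25 ± 0.47 in Cre+ (edgeR adjusted p = 1.33e-06) and 3.40 ± 0.47 in Cre- mice (adjusted p = 8.44e-07).

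The Mir692-2 row (chr4:125504749-125504857) overlaps an exon of the ferritin light chain pseudogene Ftl2-ps by 83.5% of its length. It stood at 2.01, 2.12 and 2.32 CPM in demyelination Cre+ libraries, against 0.328, 0.266 and 0.269 CPM in naive Cre+ libraries. In Cre- mice it stood at 2.47, 2.77 and 1.89 CPM in demyelination and at 0.714, 0.450 and 0.429 CPM in naive libraries. No library outside demyelination was above this 0.714 CPM, so Mir692-2 can have passed the filter on low counts through demyelination, and its tests there are a description. The rise was 2.89 ± 0.48 in Cre+ (adjusted p = 1.46e-05) and 2.19 ± 0.45 in Cre- mice (adjusted p = 0.000411), beside rises of 3.18 ± 0.28 and 1.79 ± 0.26 for Ftl2-ps in Cre+ and Cre- mice. At early-tamoxifen remyelination both rows were lower than in demyelination, with -3.60 ± 0.58 for Mir692-2 and -3.59 ± 0.31 for Ftl2-ps in Cre+, and -3.26 ± 0.57 and -3.13 ± 0.31 in Cre- mice.

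Mir369 (chr12:109743418-109743496) belongs to a large miRNA cluster of imprinted genes and touches an exon of the transcript Mirg by 1.3% of its length. Its row stood at 1.01, 1.23 and 1.67 CPM in demyelination Cre+ libraries, against 0.374, 0.145 and 0.154 CPM in naive Cre+ libraries. In Cre- mice it stood at 1.10, 1.27 and 0.757 CPM in demyelination and at 0.220, 0.450 and 0.165 CPM in naive libraries. The groups did not overlap, with rises of 2.55 ± 0.50 in Cre+ (adjusted p = 0.000111) and 1.80 ± 0.49 in Cre- mice (adjusted p = 0.00506) in the fit of all 89 members. It had passed the filter on low counts only through its highest group, demyelination Cre+. Mirg itself stayed between 0 and 0.430 CPM in all libraries.

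Mir703 (chr5:98475556-98475664) lies in an intron of Cfap299 on the other strand. It stood at 2.36, 1.93 and 3.29 CPM in demyelination Cre+ libraries, against 0.468, 0.314 and 0.385 CPM in naive Cre+ libraries, a rise of 2.71 ± 0.45 (adjusted p = 1.39e-05). In Cre- mice it stood at 2.41, 1.66 and 1.56 CPM in demyelination and at 0.714, 1.43 and 0.462 CPM in naive libraries, a rise of 1.07 ± 0.42 that only just passed (adjusted p = 0.0469). DESeq2 and 8 other alternatives lost this Cre- call, with adjusted p-values up to 0.226. The lower level at early-tamoxifen remyelination in Cre- mice was as near the threshold (-1.08 ± 0.46, adjusted p = 0.0496), and 10 of 13 alternatives lost it, with -0.65 and an adjusted p of 0.247 without early-tamoxifen remyelination Cre- replicate 1.

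Mir5107 overlaps an exon of Cd74, the invariant chain of MHC class II, by 13.6% of its length. It stood at 0.542, 0.377 and 0.594 CPM in demyelination Cre+ libraries, against 1.26, 1.72 and 1.18 CPM in demyelination Cre- libraries, without overlap (-1.45 ± 0.48, adjusted p = 0.0565; called with the 6 demyelination libraries alone, adjusted p = 0.0304). Cd74 was lower in the same Cre+ libraries, at -1.30 ± 0.21 (adjusted p = 0.000984). Over naive, the Mir5107 row rose by 1.96 ± 0.58 in Cre+ (adjusted p = 0.00627) and by 4.18 ± 0.60 in Cre- mice (adjusted p = 3.64e-06), the first value being 1.16 without the 3 libraries of low Cx3cr1 (adjusted p = 0.274). Cd74 rose by 2.95 ± 0.22 in Cre+ and by 4.57 ± 0.24 in Cre- mice.

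The miR-142b row (Mir142b, chr11:87756841-87756955) lies in an intron of Mir142hg on the other strand and overlaps the Mir142 row, which was listed at 0. Mir142b was called higher at demyelination in Cre+ mice (1.62 ± 0.46, adjusted p = 0.00393; 1.55 with adjusted p = 0.0843 without the 3 libraries of low Cx3cr1), beside the rise of Mir142hg given above. In Cre- mice its difference was 0.74 ± 0.43 (adjusted p = 0.196). Whether the counting used the strand is not given in the sources used here, and without it reads of Mir142hg and Mir142b cannot be told apart.

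**Figure D3:**
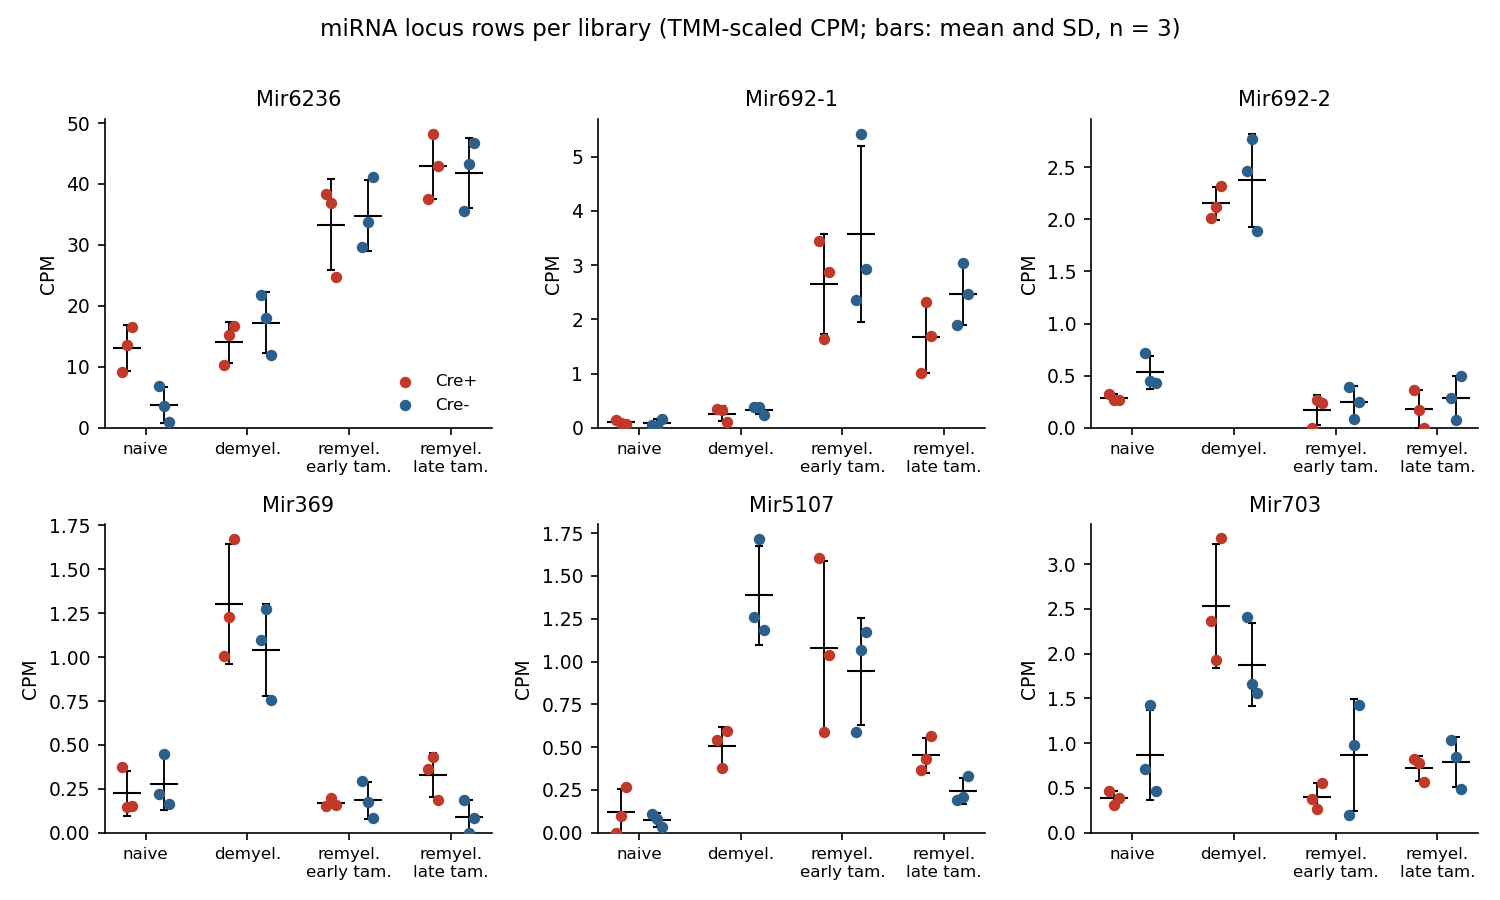
CPM of 6 hairpin rows (y axis) in the 4 states (x axis), 1 point per library, with Cre+ left of Cre- and bars for the mean and SD of 3 libraries. The Mir692-1 and Mir692-2 rows peak in different states, and the Mir6236 row separates the genotypes in naive libraries, with at least 9.08 CPM in Cre+ against at most 6.86 CPM in Cre-.

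Further hairpin rows were called between states. Mir1931 rose at demyelination in Cre- mice by 1.57 ± 0.32 (adjusted p = 0.000356), and so did its host Cdk17 by 0.59 ± 0.12 (adjusted p = 0.000271). Mir5123 was higher in early-tamoxifen remyelination than in demyelination by 2.94 ± 0.58 in Cre+ and 1.57 ± 0.57 in Cre- mice (adjusted p = 8.78e-05 and 0.0229), the Cre- call being lost in 6 of 13 alternatives, beside 0.87 ± 0.09 and 0.77 ± 0.09 for its host B4galt1. In Cre+ mice Mir5125, Mir6374, Mir7052, Mir6905 and Mir7031 were also higher in early-tamoxifen remyelination, with log2 fold changes between 0.97 and 2.16, and all 5 calls were lost without the 3 libraries of low Cx3cr1. Correction for GC content and length ended 4 of those 5 calls. Members called only between states, Mir5620 and Mir146 were chosen for naming after their values were seen.

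**Figure D4:**
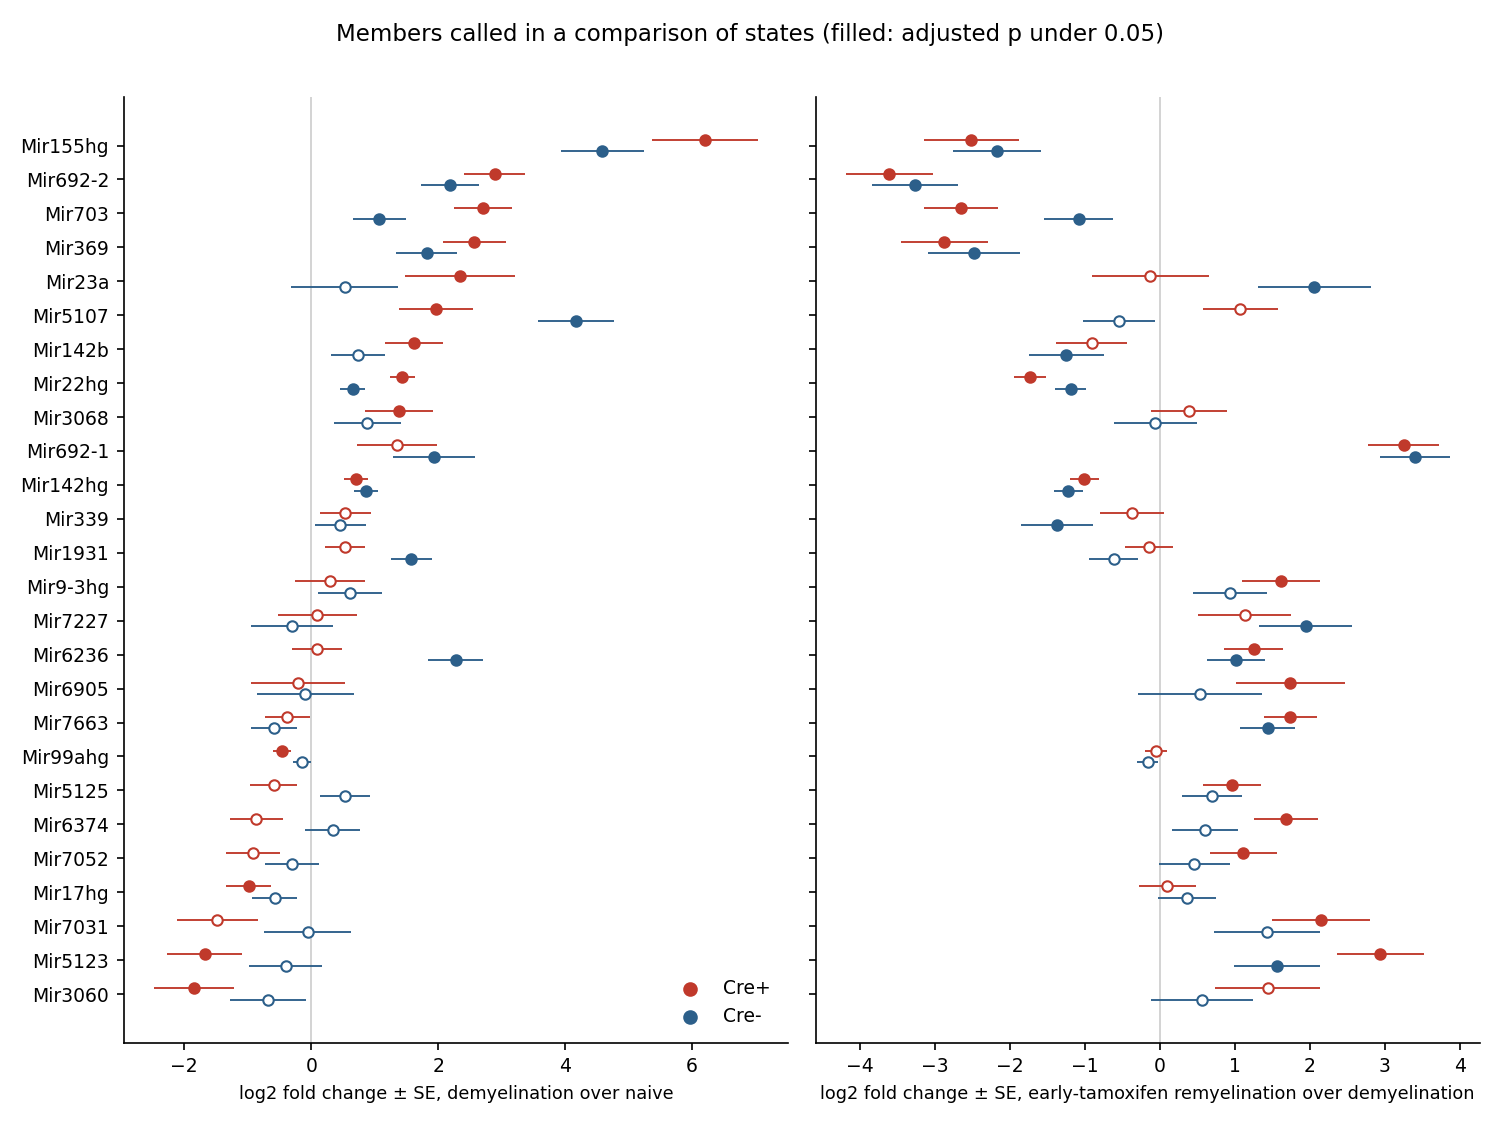
Log2 fold change with its SE (x axes) of the 26 members called in at least 1 comparison of states, for demyelination over naive (left) and early-tamoxifen remyelination over demyelination (right), in Cre+ (upper of each pair) and Cre- mice; filled points passed an adjusted p of 0.05. Mir155hg, Mir692-2, Mir703, Mir369, Mir22hg and Mir142hg are higher in demyelination in both genotypes and lower again at early-tamoxifen remyelination, though for Mir703 in Cre- mice most alternatives lost both calls.

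Rows of other miRNAs known from macrophages were near their counting limit. Mir146 (chr11:43374397-43374461), the intergenic hairpin of miR-146a, which dampens inflammatory signalling, held 183 counts in all. Demyelination over naive gave a log2 fold change of 0.14 ± 0.52 in Cre+ and -0.13 ± 0.56 in Cre- mice (edgeR adjusted p = 0.842 and 0.892). Its mature sequence is shown for contrast with miR-155-5p, whose host rose in the same libraries.
miR-146a-5p: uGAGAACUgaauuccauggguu
The rows of the Mir23a cluster held 96 (Mir23a), 74 (Mir24-2) and 50 counts (Mir27a). Mir23a was called higher in demyelination than in naive Cre+ mice (2.33 ± 0.88, adjusted p = 0.0305) and higher in early-tamoxifen remyelination than in demyelination Cre- mice (2.05 ± 0.77, adjusted p = 0.0298), both values being from the fit of all 89 members, since it had passed the filter on low counts only through early-tamoxifen remyelination Cre-. Both calls were lost with GC and length correction (adjusted p = 0.0614 and 0.107), the first also without the 3 libraries of low Cx3cr1 (adjusted p = 0.104) and without naive Cre+ replicate 2 (1.84) or demyelination Cre+ replicate 3 (1.30). The second was lost without early-tamoxifen remyelination Cre- replicate 3 or demyelination Cre- replicate 1 or 3 (adjusted p = 0.0764 to 0.0986).

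A hairpin row in an intron could follow the transcript around it. For 22 hairpin rows in an intron of a same-strand host, both row and host could be tested. In naive microglia none of these 22 rows was called between genotypes, while 11 of the 22 hosts were, and 10 of 22 pairs had the same sign. The median SE was 0.486 for rows and 0.095 for hosts. Across the 22 pairs Pearson's r was 0.647 and Spearman's rho 0.481, as a description of pairs that share libraries and depth. This was the highest r of the 12 comparisons of genotype and state, in which it ran between -0.188 (early-tamoxifen remyelination, Cre+ over Cre-) and 0.647. For early-tamoxifen remyelination over demyelination in Cre- mice, 16 of 22 pairs had the same sign (r 0.64, rho 0.621, against r 0.314 and rho 0.28 for the same change of state in Cre+ mice), with 4 rows and 16 hosts called and 3 pairs called in the same direction.

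Mir7663 went against its host. The Mir7663 row was higher in early-tamoxifen remyelination than in demyelination by 1.74 ± 0.36 in Cre+ (adjusted p = 0.000141) and by 1.44 ± 0.37 in Cre- mice (adjusted p = 0.00173). Its host Tbpl1, a relative of the TATA-binding protein, was lower, at -1.01 ± 0.09 in Cre+ (adjusted p = 3.04e-10) and at -0.69 ± 0.09 in Cre- mice (adjusted p = 3.68e-07). With GC content and length taken out, the Mir7663 value in Cre- mice was 0.81 and no longer called (adjusted p = 0.0801).

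**Figure D5:**
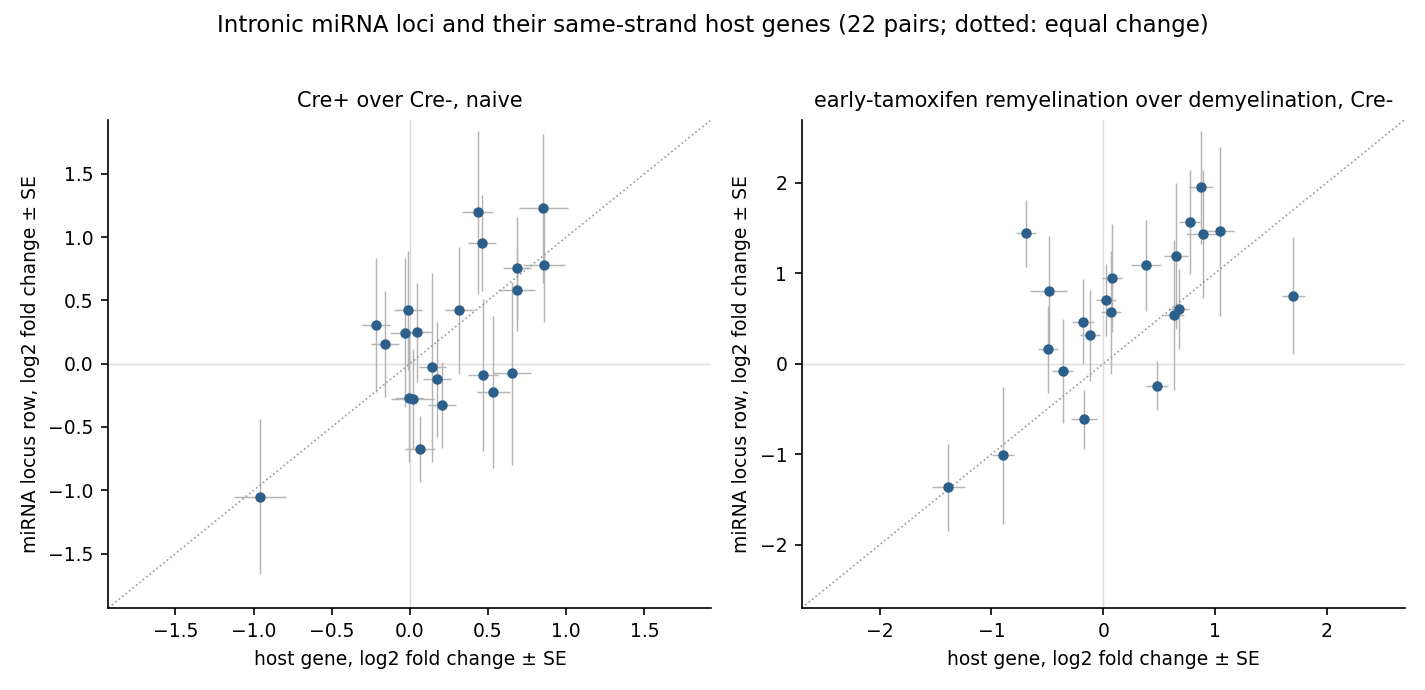
Log2 fold change with its SE of 22 intronic hairpin rows (y axis) against that of their same-strand host genes (x axis), for Cre+ over Cre- in naive mice (left) and early-tamoxifen remyelination over demyelination in Cre- mice (right); the dotted line marks equal change. The vertical error bars are longer than the horizontal ones, with median SEs of 0.486 and 0.095 in the left panel, and on the right the pair of Mir7663 (1.44) and Tbpl1 (-0.69) is among the points at the upper left, where the host was lower and the row higher.

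Other genes of the miRNA pathway were counted beside the members. Of 20 genes of the processing and silencing machinery that could be tested, 10 were higher and 0 lower in naive Cre+ microglia, with a median log2 fold change of 0.38 against -0.01 over all genes, of which 14.7% were called higher and 13.7% lower. Among them were Ago2, the Argonaute that can cut its target (1.11 ± 0.14, edgeR adjusted p = 2.37e-06), and its silencing partners Tnrc6c (1.10 ± 0.14, adjusted p = 4.32e-06) and Tnrc6a (0.74 ± 0.10, adjusted p = 1.15e-05). Dicer1 itself, given above, was also among the 10, and the list was written with earlier results of these data known. In demyelination 0 were higher and 1 lower, in early-tamoxifen remyelination none was called, and in late-tamoxifen remyelination 6 were higher and 1 lower. Of all genes, 9.17%, 0.0341% and 11% were called in either direction in these 3 states, in the same order. Drosha, which makes the hairpin, was at 0.04 ± 0.13 in naive microglia (adjusted p = 0.858). Without the 3 libraries of low Cx3cr1, 9 genes were higher and 0 lower in naive microglia, of 21 tested, where 11.5% of all genes were called in each direction, and Ago2 (1.10), Tnrc6c (1.09) and Tnrc6a (0.62) were among the 9.

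Of 28 protein-coding or noncoding genes that carry miRNAs but have no miRNA symbol, 10 were higher and 5 lower in naive Cre+ microglia, with a median of 0.26 (all genes: 14.7% higher and 13.7% lower, median -0.01). Clcn5, which hosts the miR-188 group, was higher by 1.00 ± 0.15 (adjusted p = 1.95e-05), Lpp, which hosts miR-28, by 0.74 ± 0.12 (adjusted p = 6.6e-05) and Huwe1, which hosts miR-98, by 0.68 ± 0.10 (adjusted p = 1.6e-05). The 5 lower genes, named after their values were seen, were Ppargc1b, Vmp1, Rcl1, Ftx and Copz1, with log2 fold changes between -0.86 and -0.25. Smc4, a condensin subunit whose introns carry miR-15b and miR-16-2, was higher in late-tamoxifen remyelination by 1.97 ± 0.20 (adjusted p = 1.86e-06). In demyelination 2 of the 28 were higher and 0 lower, in early-tamoxifen remyelination none was called, and in late-tamoxifen remyelination 5 were higher and 0 lower. The shares of all genes called in either direction were 9.17%, 0.0341% and 11% in the same order. Without the 3 libraries of low Cx3cr1, 10 were higher and 3 lower in naive microglia, where 11.5% of all genes were called in each direction, and Clcn5 (0.88), Lpp (0.66) and Huwe1 (0.66) were among the 10.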

How the data were processed

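Whole-gene read counts for 24 libraries were analysed as deposited. Per the submitters' processing notes, the tools included Trimmomatic 0.36, STAR 2.5.2b, featureCounts from Subread 1.5.2 and DESeq2, on GRCm38. The strand setting, the handling of multimapping and overlapping reads and the annotation release are not known here. The members and lists were chosen with earlier results of these data known.

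Counts were fitted in R 4.3.3 with edgeR 4.0.16 (TMM, filterByExpr, robust quasi-likelihood, 8 group means, 16 residual degrees of freedom; 17579 genes). Each p was adjusted by Benjamini-Hochberg over all genes tested, with a threshold of 0.05. SE is the log2 fold change divided by the square root of F. Alternatives were DESeq2 1.42.0, its size factors, other count filters, GC and length correction, a replicate block and left-out libraries. Counting intervals are exact at 95%.

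Named genes were members called between genotypes, the 10 highest members, those beside the threshold, their hosts and up to 4 genes of each other list. A low Cx3cr1 level was set at under 5% of the Cre- mean of the state. Depth was 8.87 to 44.53 M counts.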

Additional observations from a re-analysis of the deposited data

Results flagged for a closer look

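The genotype difference of the Mir6236 row differed between states by a test of the difference itself. Its log2 fold change, Cre+ over Cre-, was -0.30 ± 0.39 in demyelination and 1.89 ± 0.43 in naive microglia, and the edgeR test of the difference gave -2.19 ± 0.58 (adjusted p = 0.0168, n = 3 libraries per group). Naive Cre- libraries were the low ones, with 6.86, 3.52 and 0.924 CPM, against at least 9.08 CPM in every other library of these states. Without the 3 libraries of low Cx3cr1 the difference was -2.19 with an adjusted p of 0.0917, and with a replicate block it was -2.28 (adjusted p = 0.0975). The cause was not tested.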

How the results depend on the processing

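No result changed sign past the threshold under any alternative run. Called members in naive microglia, 2 in the main analysis, numbered 4 with DESeq2 size factors, with no filter, with DESeq2's own test and with GC and length correction, and 1 with the 6 libraries of the state alone. In demyelination they numbered 1 with no filter, 2 with the 6 libraries alone and 1 with a replicate block plus GC and length correction. For the mean of 4 states the 6 calls became 0 without the 3 libraries of low Cx3cr1, a fit in which demyelination Cre+ has 1 library that is assumed to vary like the other groups. For the difference between the naive and demyelination effects, 1 in the main analysis, counts were 2 with DESeq2 size factors, 3 with DESeq2's own test, 2 with GC and length correction, 0 with a replicate block, 0 with both together and 0 without the low Cx3cr1 libraries. Between states in Cre+ mice, 14 and 16 calls became 8 and 9 without these libraries. Leaving out 1 library gave 1 to 5 calls in naive, 0 in demyelination and early-tamoxifen remyelination, 0 to 2 in late-tamoxifen remyelination, 3 to 6 over the mean of states and 1 to 2 for the naive against demyelination difference. It gave 11 to 13 and 8 to 10 calls for demyelination over naive in Cre+ and Cre- mice, and 13 to 21 and 11 to 13 for early-tamoxifen remyelination over demyelination. Whether replicate numbers pair the samples is not settled, and the main fit did not pair them. Correlations of same-numbered libraries were 0.0394 to 0.0918 in naive and 0.0755 to 0.294 in late-tamoxifen remyelination. In both, every Cre+ sample correlated best with the Cre- sample of its own number. In demyelination and early-tamoxifen remyelination the correlations were below 0 for 2 of 3 numbers. With the replicate block the count was 4 over the mean of states. Depth limits most hairpin rows. GC and length correction ended many calls of hairpin rows between states and added others, among them Mir7663, Mir1931 and Mir7086 in Cre- mice. It also called Mir99ahg lower in early-tamoxifen remyelination than in demyelination in both genotypes. The cause was not tested.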
